A study of Mus musculus with 14 samples.

Results

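Cdkn1a, which encodes the cyclin-dependent kinase inhibitor p21, and 9 other genes known to respond to p53 were followed in mouse quadriceps muscle with and without HDAC3. The 10 genes, Cdkn1a, Btg2, Gadd45a, Ccng1, Bax, Eda2r, Phlda3, Trp53inp1, Mdm2 and Sesn1, were taken by symbol from a gene expression table of 24354 genes, and all 10 were present. All 10 also had a mean of at least 1 FPKM (fragments scaled to transcript length and to the mapped fragments of the library) over the 6 libraries, the level that 10501 genes reached and that was required for a test.

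Quadriceps came from male C57BL/6 mice, 4 months old, kept on normal chow and a normal light and dark schedule, at rest and without treatment. Tissue was taken at zeitgeber time 10 h, that is 10 h after lights on. RNA sequencing covered 3 libraries of HDAC3 wild-type muscle and 3 of HDAC3 knockout muscle, so each group mean below has n = 3, and errors are SD unless another is named. The sources used here do not say how or in which cells Hdac3 was deleted, or that each library came from a separate mouse, so the p-values measure the spread between these libraries, which may be technical. Library depth is not given. From the spacing of low FPKM values, the libraries' depths relative to wild-type replicate 1 were 0.831 and 1.02 for the other wild-type libraries and 0.660 to 0.832 for the knockout libraries. Low values in knockout replicates 1 and 3, the shallowest of the 6 libraries, rest on fewer reads.

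p53 is a transcription factor that is held low by the ubiquitin ligase MDM2 and accumulates after DNA damage and other stresses. Its targets stop the cell cycle, above all through p21, promote cell death, restrain growth signalling and, through Mdm2, switch p53 off again. Many of these genes are also driven by other factors, and in muscle p21 is best known for holding differentiating myoblasts out of the cell cycle. HDAC3 is a histone deacetylase that represses genes as part of the NCoR and SMRT corepressor complexes.

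Promoter sequence was examined because the genes are grouped by their response to a DNA-binding factor. RefSeq promoter windows (GRCm38.p6, 250 bases before to 50 after each listed start) matched 9 of the 10 genes, with 11 windows, and did not hold Trp53inp1. The p53 response element was searched by name, on both strands, as a pair of 10-base p53 sites at most 13 bases apart with at most 1 mismatch in the 20 bases, the central C and G of each site being kept. It was found in 2 of the 11 windows, those of Cdkn1a and Ccng1, against 0.627% of all 32851 windows. The 3 stretches below are shown, each read 5′ to 3′ on the strand of its gene. The first holds the element of the gene that rose most, the next the element of the most abundant of the 10 genes, which did not pass the test, and the last the only cyclic AMP response element (CRE) found among them. Capitals mark the p53 element in Cdkn1a and Ccng1 and the CRE in Btg2.
Cdkn1a, chr17:29090888-29090978, plus strand: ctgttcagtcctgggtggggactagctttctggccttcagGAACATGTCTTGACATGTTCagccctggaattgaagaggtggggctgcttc
Ccng1, chr11:40755422-40755521, minus strand: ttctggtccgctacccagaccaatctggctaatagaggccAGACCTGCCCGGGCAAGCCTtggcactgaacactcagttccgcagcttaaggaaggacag
Btg2, chr1:134079274-134079361, minus strand: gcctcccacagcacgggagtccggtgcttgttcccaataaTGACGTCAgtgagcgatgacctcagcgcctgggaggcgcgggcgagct
In Cdkn1a the capitals lay 51 to 32 bases before the upstream of its 2 listed starts, with the mismatch at position 11 of 20 counted from the 5′ end. The same window held a further pair with no mismatch, in which the upstream site of the capitals follows another p53 site after 12 bases. In Ccng1 they lay 195 to 176 bases before the start, with the mismatch at position 5. The window of the downstream Cdkn1a start held no such element, and gene-level FPKM does not separate the starts.

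A single p53 site with no mismatch stood in windows of 6 genes, Bax, Ccng1, Cdkn1a, Gadd45a, Mdm2 and Sesn1, and in 8.36% of all windows. Among other motifs searched on both strands, the CRE (TGACGTCA) was found in the window of Btg2 and in 1.79% of all windows, and the E-box bound by CLOCK and BMAL1 (CACGTG) in those of Bax and Eda2r and in 7.15% of all. Neither the AP-1 site (TGANTCA, 7.81% of all windows) nor the ATF4 element (TGATGCAA, 0.895%) was found in a window of these genes. The SP1 box (GGGCGG) was found in 9 of the 11 windows (35.7% of all) and the CCAAT box in 7 (37.4%). The TATA box (TATAAA) was found in 1 window, that of Eda2r, and in 13.6% of all. These are matches of letters within 300 bases and describe no binding.

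The labels were checked first on Hdac3 itself. Its level was 33.3, 31.0 and 23.7 FPKM in the wild-type libraries and 5.51, 6.29 and 8.16 FPKM in the knockout libraries. The groups did not overlap, and Hdac3 fell by 1.99 on the log2(FPKM + 1) scale (limma, adjusted p = 0.00632). Wild-type replicate 2 stood apart from the other 5 libraries in markers of neutrophils, given with the other cell types further on, and values without it are given there. Whole-muscle RNA was sequenced, so fewer cells of a type and less RNA per cell cannot be told apart in any value here.

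Cdkn1a was the gene of the group that changed most. It stood at 0.841, 1.12 and 1.56 FPKM in the wild-type libraries and at 11.3, 17.8 and 10.9 FPKM in the knockout libraries. Every knockout library was far above every wild-type library, and the lowest of them, replicate 3, was still several times the highest wild-type value. The mean rose from 1.17 ± 0.360 to 13.3 ± 3.84 FPKM, an 11.3-fold difference (log2 ratio of the means 3.50 ± 0.35, SE). The difference of mean log2(FPKM + 1), a scale that compresses changes in genes this low, was 2.70 (95% interval 2.20 to 3.20), with a Benjamini-Hochberg adjusted p of 0.00599 from limma over all 10501 genes. By ratio of means Cdkn1a ranked 13th and by limma p 5th among these genes. For Cdkn1a the authors' deposited table gave a q-value of 0.00119. Leaving out any single library gave between 9.46-fold and 13.6-fold, and the adjusted p stayed between 0.00712 and 0.0334. In the order of levels among the 10 genes, FPKM being per transcript length, Cdkn1a was the lowest (rank 10) in wild-type muscle and rank 5 in knockout muscle. Its knockout mean there lay between those of Eda2r, 13.8 FPKM, and Sesn1, 12.6 FPKM, and the libraries of all 3 genes overlapped.

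Over the 10 genes, limma called 1, Cdkn1a, as risen, where 2.3% of all genes tested rose and 1.34% fell. At an unadjusted limma p under 0.05, 5 of the 10 were higher and none was lower, where 11% of all genes tested were higher and 8.68% lower at that threshold. In the authors' deposited table, 5 of the 10, Cdkn1a, Btg2, Eda2r, Phlda3 and Trp53inp1, had a q-value under 0.05 and a higher knockout value, where 5.9% of the 9204 genes tested by the authors rose and 4.94% fell. Of these 5, 3 had wild-type and knockout libraries that overlapped. The knockout mean was higher for 10 of 10 genes, against 49.8% of all genes. Every knockout library lay above every wild-type library for 3 of 10, Cdkn1a, Btg2 and Mdm2, against 14.2% of all genes in that direction and 11.9% in the other. The median log2 ratio of the 10 genes was 0.52, and that of all genes tested was 0.00. Without Cdkn1a, the 4 genes called in the authors' deposited table had a median fold of 1.47, far under the fold of Cdkn1a.

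**Figure D1:**
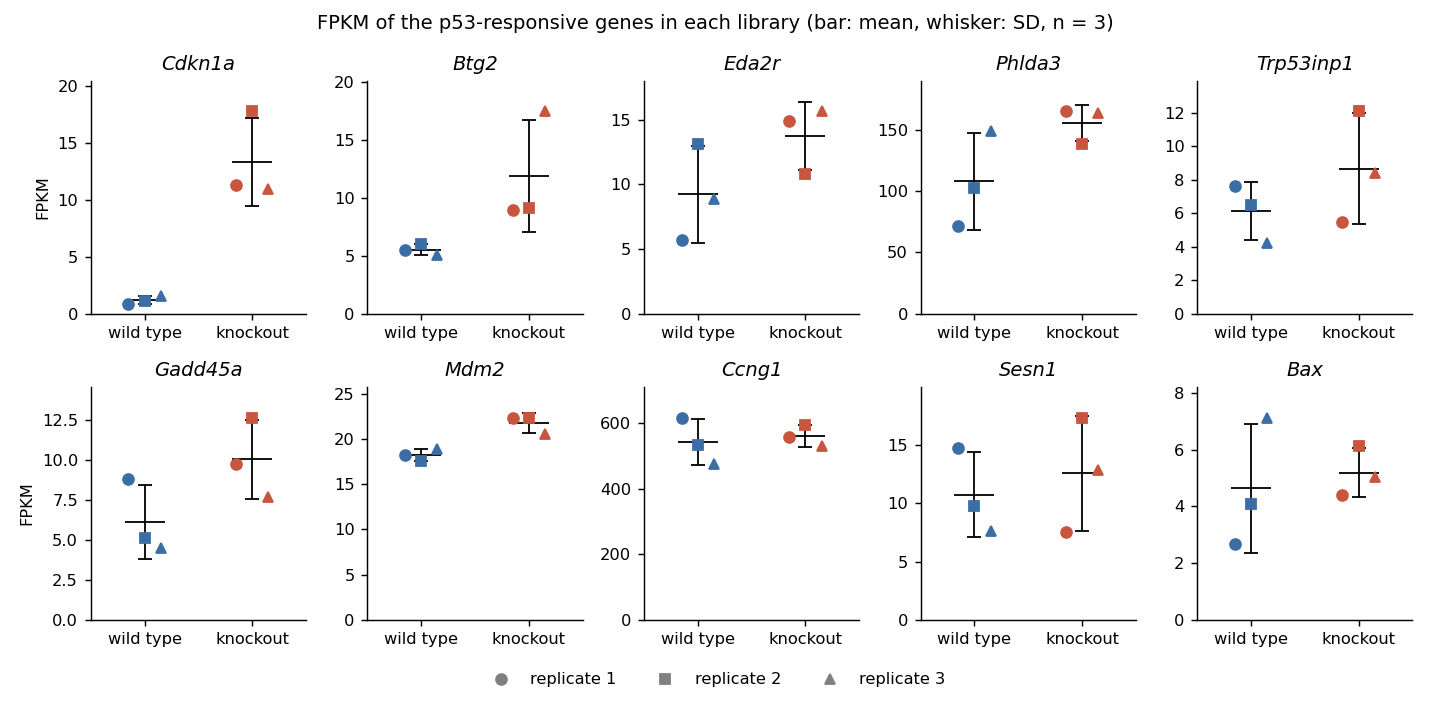
FPKM (vertical axes, each starting at 0 with its own scale) of the 10 genes in 3 wild-type (blue) and 3 knockout (red) libraries, with the mean as a bar, the SD as a whisker and the replicate number as the shape. The groups are apart for Cdkn1a, Btg2 and Mdm2 and overlap for the other genes.

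Among the other genes of growth arrest, Btg2 came closest to Cdkn1a. BTG2 is an antiproliferative protein that brings the CCR4-NOT deadenylase to messenger RNAs and is also an early response gene. Btg2 was at 5.54, 6.06 and 5.04 FPKM in wild-type and 8.97, 9.18 and 17.5 FPKM in knockout libraries. The groups did not overlap, and knockout replicate 3 stood well above the other two. The mean was 5.55 ± 0.509 against 11.9 ± 4.86 FPKM, 2.14-fold (log2 ratio 1.10 ± 0.35, SE), and 1.64-fold without knockout replicate 3. With limma the difference on the log2(FPKM + 1) scale was 0.92 (95% interval 0.35 to 1.48) and missed the threshold (adjusted p = 0.0901). The authors' deposited table gave a q-value of 0.00119.

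Gadd45a encodes a stress-induced protein that acts in DNA repair, growth arrest and stress kinase signalling, and in muscle it is known to be induced by denervation and fasting. It was at 8.81, 5.11 and 4.47 FPKM in wild-type and 9.76, 12.7 and 7.70 FPKM in knockout libraries. Wild-type replicate 1 was above knockout replicate 3, so the groups overlapped. The means were 6.13 ± 2.34 and 10.04 ± 2.49 FPKM, a 1.64-fold difference that was not called (limma adjusted p = 0.213). The authors' deposited table gave a q-value of 0.106, above the threshold. With a library left out the fold ran from 1.43, without knockout replicate 2 (limma adjusted p = 0.411, groups overlapping), to 2.10, without wild-type replicate 1 (adjusted p = 0.0824, groups apart). Gadd45a overlaps the noncoding gene E230016M11Rik in the annotation, and strand use in counting is not given; that gene was listed at 0.812 FPKM in wild-type and 0.899 FPKM in knockout muscle, and its part in the Gadd45a values was not tested.

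Ccng1 encodes cyclin G1, which works with a phosphatase to activate MDM2. It was by far the most abundant of the 10 genes, at 617, 534 and 476 FPKM in wild-type and 558, 595 and 530 FPKM in knockout libraries. The groups lay within each other. The means of 543 ± 70.9 and 561 ± 32.3 FPKM differed 1.03-fold, and the limma interval of the difference ran from -0.23 to 0.34 on the log2(FPKM + 1) scale (adjusted p = 0.855). For a gene this high that interval holds ratios of 0.851 to 1.27, so a change of the size seen in Cdkn1a or Btg2 lay outside it. Cdkn1a and Ccng1, the genes with a p53 element in their windows, were the one that rose most and the one with the smallest fold of the 10.

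Of 4 genes linked to cell death and survival signalling, 3 rose in the authors' deposited table, against 5.9% of the genes tested there. The libraries of these 3 overlapped between the groups, and limma called none of the 4, where 2.3% of all genes tested rose. Phlda3 encodes a small pleckstrin homology protein that competes with AKT for membrane lipids and so restrains AKT. It was at 71.5, 103 and 150 FPKM in wild-type and 165, 139 and 164 FPKM in knockout libraries. The wild-type libraries were spread widely, and their highest, replicate 3, lay above knockout replicate 2. The means were 108 ± 39.3 and 156 ± 15.0 FPKM, 1.44-fold, with a limma adjusted p of 0.247. The authors' deposited table gave a q-value of 0.00927. Leaving out wild-type replicate 1 gave 1.23-fold, and leaving out wild-type replicate 3 gave 1.79-fold.

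Eda2r encodes a receptor of the tumour necrosis factor receptor family that binds ectodysplasin A2. It was at 5.69, 13.2 and 8.84 FPKM in wild-type and 14.9, 10.8 and 15.7 FPKM in knockout libraries. Only wild-type replicate 2 reached into the knockout range. The means were 9.23 ± 3.75 and 13.8 ± 2.62 FPKM, 1.49-fold (limma adjusted p = 0.299), and the authors' deposited table gave a q-value of 0.0192. With a library left out the fold ran from 1.25, without wild-type replicate 1 (limma adjusted p = 0.479, groups overlapping), to 1.90, without wild-type replicate 2 (adjusted p = 0.180, groups apart). Eda2r overlaps the predicted gene Gm18111 in the annotation.

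Trp53inp1 encodes a stress protein of the nucleus and of autophagosomes. It was at 7.64, 6.46 and 4.24 FPKM in wild-type and 5.48, 12.1 and 8.42 FPKM in knockout libraries. Knockout replicate 1 lay below wild-type replicates 1 and 2. The 1.42-fold difference of the means, 6.11 ± 1.73 and 8.66 ± 3.31 FPKM, was not called by limma (adjusted p = 0.480). It had a q-value of 0.0274 in the authors' deposited table, and the fold was 1.14 without knockout replicate 2.

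Bax encodes the BCL2 family protein that permeabilises the mitochondrial outer membrane. It was at 2.67, 4.09 and 7.13 FPKM in wild-type and 4.41, 6.12 and 5.04 FPKM in knockout libraries. All 3 knockout values lay inside the wild-type range. The means were 4.63 ± 2.28 and 5.19 ± 0.867 FPKM, 1.12-fold (limma adjusted p = 0.743), and the authors' deposited table gave a q-value of 0.843. The limma interval, -0.45 to 0.86 on the log2(FPKM + 1) scale, was wide, and without wild-type replicate 1 the knockout mean was the lower one.

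Mdm2, the feedback ligase of p53, was at 18.3, 17.5 and 18.9 FPKM in wild-type and 22.4, 22.4 and 20.5 FPKM in knockout libraries. Both groups were tight and did not overlap. The difference was small: 18.2 ± 0.666 against 21.7 ± 1.08 FPKM, 1.19-fold, with a limma interval of 0.03 to 0.46 and an adjusted p of 0.207. The authors' deposited table gave a q-value of 0.353. The fold was between 1.17 and 1.23 with any single library left out.

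Sesn1 encodes a sestrin, a restraint on mTORC1 signalling. It was at 14.8, 9.82 and 7.65 FPKM in wild-type and 7.52, 17.4 and 12.9 FPKM in knockout libraries. The lowest and the highest library were both knockout. The means of 10.7 ± 3.64 and 12.6 ± 4.94 FPKM differed 1.17-fold (limma adjusted p = 0.804), the authors' deposited table gave a q-value of 0.518, and the direction turned without knockout replicate 2.

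**Figure D2:**
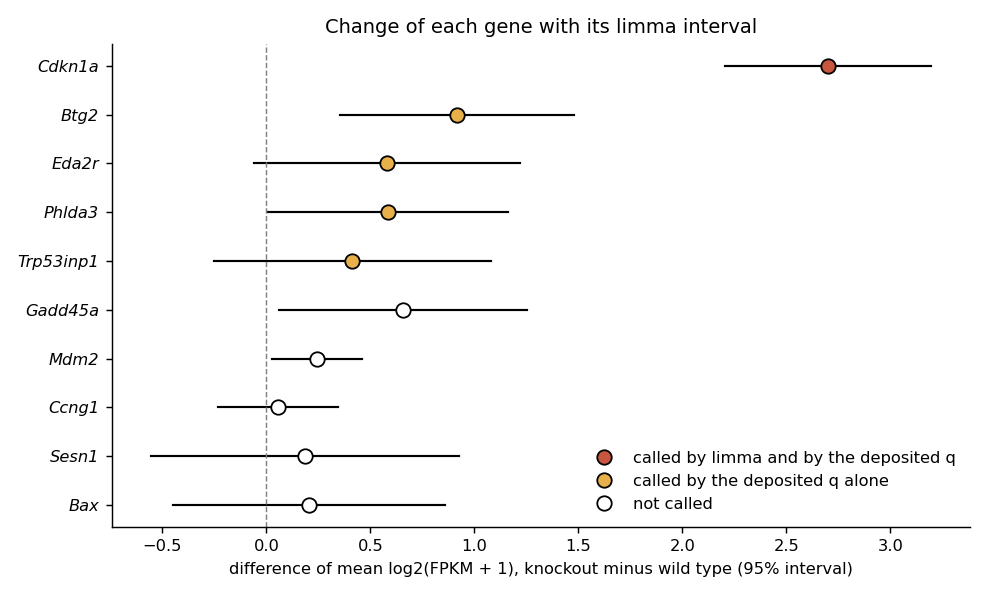
Difference of the mean log2(FPKM + 1), knockout minus wild type (horizontal axis), with its 95% limma interval for each of the 10 genes; the fill gives which test called the gene. Cdkn1a, at 2.70, stands alone, and the intervals of Eda2r, Trp53inp1, Ccng1, Sesn1 and Bax include 0.

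The library with the highest value differed between the 10 genes. Cdkn1a was highest in knockout replicate 2, as were Trp53inp1, Gadd45a and Sesn1. Btg2 and Eda2r were highest in knockout replicate 3, Phlda3 and Mdm2 in knockout replicate 1, Ccng1 in wild-type replicate 1 and Bax in wild-type replicate 3. Counted against its own wild-type mean, each of the 9 genes other than Cdkn1a was higher in knockout replicate 2. In knockout replicates 1 and 3, 6 and 8 of the 9 were higher. In wild-type replicates 1, 2 and 3, which make up that mean, 5, 3 and 3 of the 9 were higher. The share over all genes was not counted. The median log2 ratio of the 9 to their wild-type means was 0.30, 0.40 and 0.33 in knockout replicates 1, 2 and 3. It was 0.004, -0.056 and -0.137 in wild-type replicates 1, 2 and 3. Over genes with a mean of at least 5 FPKM, library medians were offset by 0.017 to 0.031 in knockout libraries. In wild-type libraries the offset was -0.034 to -0.007, all on the log2(FPKM + 1) scale.

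**Figure D3:**
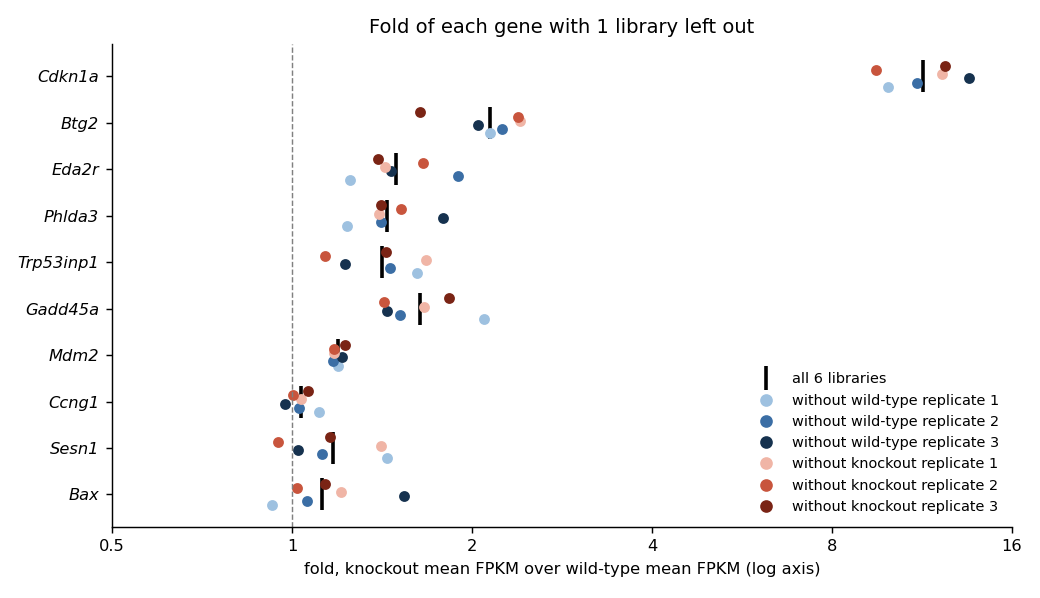
Fold of the mean FPKM, knockout over wild type (horizontal log axis), for each of the 10 genes with all 6 libraries (black bar) and with each library left out (points). The folds of Cdkn1a, 9.46 to 13.6, stay far to the right; those of Ccng1, Sesn1 and Bax reach both sides of 1.

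The genes that make and control p53 were examined next, over a list of 19 of which 16 could be tested. Limma called 0 as risen and 1 as fallen, against 2.3% and 1.34% of all genes. Without adjustment, 1 was higher and 2 were lower at p under 0.05, against 11% and 8.68% of all genes. By the deposited q-value, 1 of 15 rose and 2 fell, against 5.9% and 4.94% of genes tested by the authors. Over the 16 the median log2 ratio was -0.02. Trp53 itself, which encodes p53, was at 2.59, 4.66 and 4.49 FPKM in wild-type and 3.64, 2.88 and 3.48 FPKM in knockout libraries. These overlapped, the fold was 0.851 and the limma adjusted p was 0.718. The level of this messenger RNA says nothing of the p53 protein, which was not measured.

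Ep300, which encodes the acetyltransferase and p53 coactivator p300, was the gene that fell. It was at 6.16, 7.05 and 7.04 FPKM in wild-type and 4.48, 4.34 and 4.20 FPKM in knockout libraries, with no overlap. Its log2 ratio was -0.64 ± 0.07 (SE), with a limma adjusted p of 0.0443 and a q-value of 0.00302 in the authors' deposited table. The limma call was lost with any single library left out (adjusted p 0.0642 to 0.183). Hipk2, a kinase that phosphorylates p53, was at 0.605 of its wild-type mean (limma adjusted p = 0.141, and 0.0424 without wild-type replicate 1) and had a q-value of 0.00119 in the authors' deposited table. Trp63, which encodes the p53 relative p63, was at 1.92, 4.12 and 3.20 FPKM in wild-type and 7.70, 5.36 and 6.74 FPKM in knockout libraries. That 2.14-fold difference did not overlap, and it missed the limma threshold (adjusted p = 0.0730), with a q-value of 0.00302 in the authors' deposited table. The third member of the family, Trp73, and Cdkn2a, whose ARF product inhibits MDM2, were listed at 0 in all 6 libraries.

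The remaining regulators were not called. The damage kinases Atm and Atr had folds of 1.01 and 1.32, the checkpoint kinase Chek2 had 0.833, and Trp53bp1, a damage-site adaptor, had 0.927. Among the restraints on p53, Mdm4 had a fold of 1.0, the phosphatase Ppm1d 1.12, the ubiquitin ligases Rfwd2 and Rchy1 0.973 and 0.925, and the deacetylase Sirt1 0.947. Usp7, a deubiquitinase of MDM2 and p53, had 1.05, and the ribosomal proteins Rpl5 and Rpl11, which bind MDM2, had 1.04 and 0.994.

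Other known p53 targets were counted in 3 lists. Of 12 further apoptosis targets only 5 reached 1 FPKM, and none was called by limma or in the authors' deposited table. A higher knockout mean was seen for 2 of the 5, against 49.8% of all genes. At an unadjusted limma p under 0.05, 0 were higher and 3 were lower, against 11% and 8.68% of all genes. These were the death receptor Fas, at means of 4.81 and 3.13 FPKM, Ei24, at 33.7 and 26.1 FPKM, and the pore-forming Bak1, at 6.58 and 4.81 FPKM. In each of these 3 every knockout library lay below every wild-type library, against 11.9% of all genes. As the 3 were picked by their p-value, groups that lie apart are no separate result. The BH3 genes Bbc3 and Pmaip1, classic p53 targets, did not reach the filter.

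Of 11 DNA repair targets 10 were tested, and limma called 1, Pcna, as risen and 0 as fallen, against 2.3% and 1.34% of all genes. PCNA is the sliding clamp of DNA polymerases and a direct binding partner of p21. It was at 20.2, 15.9 and 16.8 FPKM in wild-type and 30.6, 26.7 and 33.8 FPKM in knockout libraries. The groups were well apart, 1.72-fold (limma adjusted p = 0.0294), and the authors' deposited table gave a q-value of 0.00119. The limma adjusted p was 0.0376 to 0.120 with a library left out, and passed only without wild-type replicate 1. Over these 10 the median log2 ratio was -0.10, and 4 had a higher knockout mean, against 49.8% of all genes.

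Of 26 targets in metabolism, growth and feedback 17 were tested. Limma called 1 as risen and 0 as fallen, against 2.3% and 1.34% of all genes. By the deposited q-value, 3 of 15 rose and 3 fell, against 5.9% and 4.94% of genes tested by the authors. The median log2 ratio of the list was -0.12, and 8 of the 17 had a higher knockout mean, against 49.8% of all genes. Sesn2, a sestrin induced through ATF4 as well as p53, was the gene called by limma. It was at 0.651, 0.313 and 0.510 FPKM in wild-type and 2.27, 1.56 and 2.32 FPKM in knockout libraries, 4.17-fold from a very low level (limma adjusted p = 0.0263), and its q-value was 0.00536 in the authors' deposited table. With 1 library left out the limma adjusted p was 0.0475 to 0.108, and it passed only without knockout replicate 2. Every wild-type value was under 1 FPKM, so Sesn2 reached the filter, and each list count that holds it, only through its knockout libraries. In the fit without the filter its limma adjusted p was 0.0403. The other risen genes in the authors' deposited table were Ddit4, an inhibitor of mTORC1, at 2.90-fold (q-value 0.00119), and the detoxifying hydrolase Ephx1 at 1.47-fold (q-value 0.0290). Ddit4 was at 2.62 FPKM in knockout replicate 1 and at 8.57 and 8.17 FPKM in the other knockout libraries, against 2.01 to 2.59 FPKM in wild type. Its limma adjusted p was 0.156, and 0.0234 without knockout replicate 1.

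The closest relatives of the 10 genes moved in both directions. Of 22 family genes 14 were tested. Limma called 1 as risen, the Sesn2 just described, and 0 as fallen, against 2.3% and 1.34% of all genes. The authors' deposited table had 3 risen and 3 fallen, against 5.9% and 4.94% of genes tested by the authors. Over these 14 the median log2 ratio was -0.15, and 6 of the 14 had a higher knockout mean, against 49.8% of all genes. The sestrins divided: Sesn3 was at 3.84, 4.42 and 3.28 FPKM in wild-type and 1.24, 2.06 and 2.42 FPKM in knockout libraries. Its groups did not overlap and its fold was 0.496, which limma did not call (adjusted p = 0.0822), with a q-value of 0.0176 in the authors' deposited table. Sesn1, Sesn2 and Sesn3 thus had folds of 1.17, 4.17 and 0.496.

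The BTG and TOB genes, antiproliferative relatives of Btg2, divided as well. Btg1 was at 4.14, 4.14 and 3.31 FPKM in wild-type and 2.76, 2.67 and 2.16 FPKM in knockout libraries, a fold of 0.655 (q-value 0.0342 in the authors' deposited table, limma adjusted p = 0.124). Tob1 was at 46.0, 60.6 and 57.6 FPKM in wild-type and 85.1, 61.9 and 82.6 FPKM in knockout libraries, 1.40-fold (q-value 0.0192 in the authors' deposited table, limma adjusted p = 0.163). Btg1 and Tob1 each had groups that did not overlap. Tob2 had a fold of 2.05 with groups that overlapped (q-value 0.00119 in the authors' deposited table, limma adjusted p = 0.352).

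Among the kinase inhibitors related to p21, none was called. Cdkn1b, encoding p27, was at 16.6, 14.0 and 14.3 FPKM in wild-type and 9.77, 14.3 and 11.9 FPKM in knockout libraries, a fold of 0.800 (limma adjusted p = 0.306). Cdkn1c, encoding p57, had a fold of 0.890 (adjusted p = 0.680). Cdkn2c, encoding the CDK4 and CDK6 inhibitor p18, had 1.66 (adjusted p = 0.146). In wild-type muscle Cdkn1a was the lowest of these 4 by FPKM, and in knockout muscle the highest by its mean, with libraries that overlapped those of Cdkn1b. Of the other relatives, Ccng2 had a fold of 0.649 with overlapping groups (q-value 0.0252 in the authors' deposited table, limma adjusted p = 0.328). Gadd45b had 0.710, Gadd45g 1.46, Trp53inp2 0.918 and Tnfrsf19, a receptor related to Eda2r, 0.707, none of them called.

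**Figure D4:**
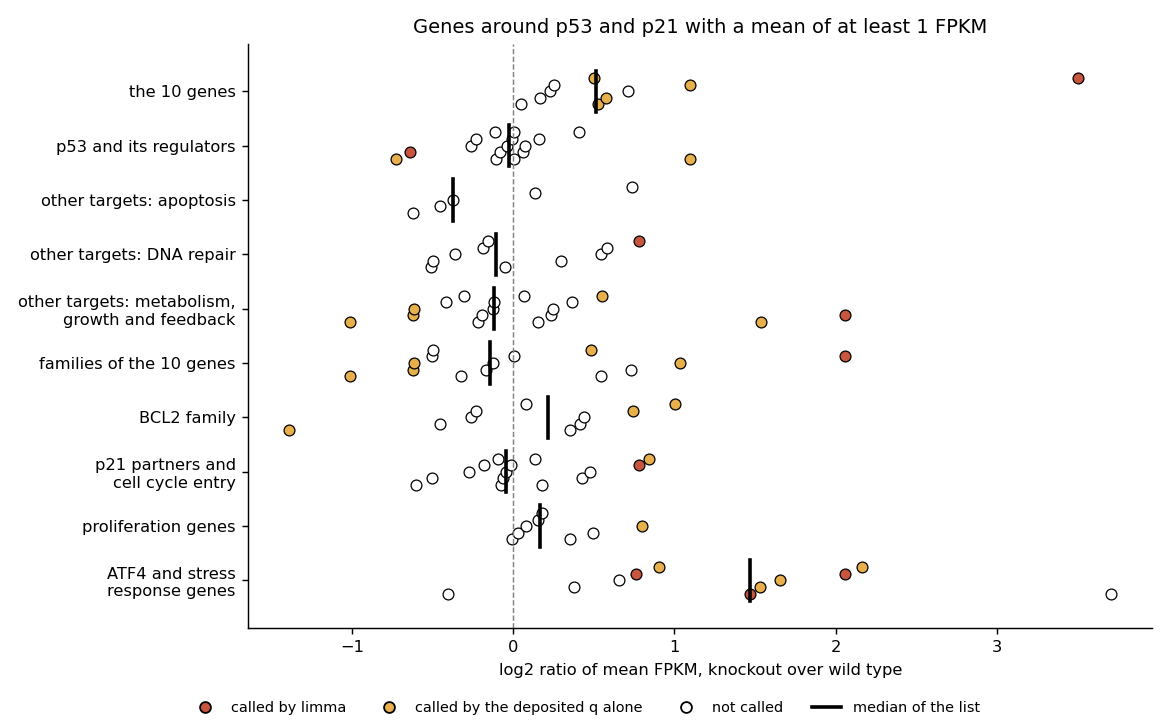
Log2 ratio of mean FPKM, knockout over wild type (horizontal axis), of each gene with a mean of at least 1 FPKM in each list; the fill gives the test that called it and the black bar the list's median. The 10 genes lie to the right of 0, and the other p53 lists lie on both sides. The stress response list has the median furthest to the right, 1.47. That list includes genes, Sesn2 and Trib3 among them, that reached 1 FPKM only through their knockout libraries.

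In the BCL2 family, which holds Bax, 10 of 16 genes were tested and none was called by limma, while 4 were higher and 2 lower at an unadjusted p under 0.05, against 11% and 8.68% of all genes. In the authors' deposited table, 2 of 9 rose and 1 fell, against 5.9% and 4.94% of genes tested by the authors. Those that rose there both protect from cell death: Bcl2l1, encoding BCL-xL, and Bcl2. Bcl2l1 was at 4.40, 4.35 and 4.26 FPKM in wild-type and 6.02, 6.92 and 8.81 FPKM in knockout libraries, 1.67-fold (q-value 0.0144 in the authors' deposited table), with no overlap and a limma adjusted p of 0.0663. Bcl2 had a fold of 2.0 with overlapping groups (q-value 0.00119 in the authors' deposited table, limma adjusted p = 0.232). Bad, which promotes cell death, was at 2.03, 5.78 and 7.11 FPKM in wild-type and 2.32, 2.09 and 1.29 FPKM in knockout libraries, a fold of 0.382 (q-value 0.0310 in the authors' deposited table, limma adjusted p = 0.209). The overlap came from wild-type replicate 1, and without it the limma adjusted p was 0.0366. Over the 10 family genes the median log2 ratio was 0.22.

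Genes that p21 acts on were then compared, since p21 binds cyclin-dependent kinases and PCNA and, through the DREAM complex, is known to lower proliferation genes. Of 18 partners and genes of cell cycle entry 15 were tested. Limma called 1, Pcna, as risen and 0 as fallen, against 2.3% and 1.34% of all genes. The authors' deposited table had 2 of 12 risen, against 5.9% of genes tested by the authors. It added Lin9, a DREAM subunit, at 1.80-fold (q-value 0.0121, limma adjusted p = 0.134). For the list the median log2 ratio was -0.04. Of 25 proliferation genes only 8 reached the filter. None was called by limma, and 1 was higher and 0 were lower at an unadjusted p under 0.05 (11% and 8.68% of all genes). Of the 8, 7 had a higher knockout mean, against 49.8% of all genes tested, and their median log2 ratio was 0.17. By the deposited q-value 1 of 6 rose, against 5.9% of genes tested by the authors. This was the replication helicase gene Mcm2, at 1.74-fold (q-value 0.0256, limma adjusted p = 0.126). Of the 17 proliferation genes under the filter, 14 had a lower knockout mean. The share over all genes under the filter was not counted. Wild-type replicate 2 was the highest wild-type library for 16 of the 17, and without it the knockout mean was lower for 8 and higher for 8. Mki67, chosen after its values were seen, was at 0.225, 2.40 and 0.316 FPKM in wild-type and 0.171, 0.252 and 0.215 FPKM in knockout libraries.

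Of the pathway lists, the one whose median stood furthest from that of all genes was that of the ATF4 transcription factor and the stress response, which shares Sesn2 with the p53 targets. Of 14 genes 11 were tested, and limma called 3 as risen and 0 as fallen, against 2.3% and 1.34% of all genes. By the deposited q-value, 7 of 11 rose and 0 fell, against 5.9% and 4.94% of genes tested by the authors. The median log2 ratio was 1.47, and 10 of the 11 had a higher knockout mean, against 49.8% of all genes. These values include genes that reached 1 FPKM, and so a test, only through their knockout libraries. Among them were Sesn2, at a wild-type mean of 0.491 FPKM, and Trib3, given below. The median without such genes was not computed. Atf5, a transcription factor of the same stress response, was at 10.3, 8.79 and 12.5 FPKM in wild-type and 30.7, 27.9 and 28.8 FPKM in knockout libraries. Its fold was 2.77 (limma adjusted p = 0.00688), and it stayed past the threshold with any single library left out. Atf4 was at 144, 125 and 137 FPKM in wild-type and 265, 212 and 213 FPKM in knockout libraries, 1.69-fold (limma adjusted p = 0.0230, and 0.0450 to 0.108 with a library left out, passing only without wild-type replicate 1 or 3).

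The other genes of that list that rose in the authors' deposited table were Chac1, which degrades glutathione, at 1.87-fold (q-value 0.00119, limma adjusted p = 0.0535, and 0.0414 without wild-type replicate 3), the asparagine synthetase gene Asns at 4.48-fold (q-value 0.00384, limma adjusted p = 0.0839), the serine synthesis gene Psat1 at 2.89-fold, or 1.84-fold without knockout replicate 1 (q-value 0.00609, limma adjusted p = 0.205) and Atf3. Atf3, a stress-induced transcription factor, had a q-value of 0.00119 in the authors' deposited table. Its libraries did not move together: it was at 3.34, 15.3 and 8.83 FPKM in wild-type and 39.4, 2.17 and 44.8 FPKM in knockout libraries. The fold was 3.15, or 4.74 without wild-type replicate 2, and the limma adjusted p was 0.635. Knockout replicate 2, lowest of all 6 libraries for Atf3, was the highest for Cdkn1a. Trib3, an uncalled point at the far right of the plot of the lists and named after its values were seen, was at 0.0847 to 0.259 FPKM in wild-type and 0.898 to 3.40 FPKM in knockout libraries.

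Markers of the cell types that quadriceps can hold were measured beside these genes, as the sum of FPKM over each list in a library. Muscle fibre markers (6 genes) dominated all libraries, at 44213 to 54983 in wild-type and 43688 to 53157 in knockout muscle. Satellite cell markers were lower in knockout muscle, at 8.43 to 9.42 against 4.14 to 5.64. All 5 had a lower knockout mean, where 49.8% of all genes tested had a higher one. For 4 of the 5 every knockout library lay below every wild-type library, against 11.9% of all genes tested. Only 2 of the 5 reached a mean of 1 FPKM, which all genes behind those shares did. For these 2 every knockout library lay below every wild-type library. The shares over genes under 1 FPKM were not counted. In the authors' deposited table, 1 of the 2 that could be tested fell, the adhesion gene Cdh15 (q-value 0.00536), which limma did not call (adjusted p = 0.156). Neutrophil markers set wild-type replicate 2 apart. They summed to as much as 554 there and to 5.47 in the lowest wild-type library, against 3.42 to 7.50 in knockout muscle. By the deposited q-value 5 of 6, S100a8, S100a9, Ngp, Camp and Retnlg, fell, against 4.94% of genes tested by the authors. Those wild-type means include the high values of replicate 2. Every knockout library lay below every wild-type library for only 1 of the 6, against 11.9% of all genes tested. Without wild-type replicate 2 Cdkn1a differed 11.1-fold (limma adjusted p = 0.0334), Btg2 2.25-fold, Eda2r 1.90-fold, Phlda3 1.41-fold and Trp53inp1 1.46-fold, with only Cdkn1a called by limma. Limma called no marker gene of any of the lists with all 6 libraries.

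The remaining sums overlapped between wild-type and knockout libraries. They were 55.8 to 68.9 and 35.9 to 64.5 for macrophage markers, 0.244 to 0.705 and 0.128 to 0.686 for lymphocyte markers, and 59.3 to 71.9 and 66.9 to 72.9 for endothelial markers. Smooth muscle and pericyte markers summed to 172 to 240 and 202 to 215, adipocyte markers to 15.4 to 28.8 and 6.05 to 30.1, Schwann cell markers to 22.7 to 28.5 and 22.1 to 23.6, and red blood cell markers to 60.8 to 278 and 63.2 to 232. Fibroblast markers summed to 421 to 596 and 288 to 444, and none of the 6 had a higher knockout mean (median log2 ratio -0.31). Of the 6, 2 fell in the authors' deposited table, the collagen genes Col1a1 and Col1a2, against 4.94% of genes tested by the authors. The part of any of these cell types in the levels of the 10 genes was not tested.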

How the data were processed

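RNA was extracted with Qiagen kits and libraries were made with Illumina kits, per the labels' protocols. The submitters' processing notes name TopHat2, Cuffdiff and the genome build mm9, with no versions. The deposited values are FPKM per gene and library, with the authors' p-values and q-values for knockout against wild type; a deposited p-value of 1 was read as not tested by the authors. From the FPKM, log2(FPKM + 1) was taken for genes with a mean of at least 1 FPKM over the 6 libraries and fitted with limma 3.58.1 with a mean-variance trend (R 4.3.3), two-sided, with Benjamini-Hochberg adjustment over all 10501 genes and a threshold of 0.05. The design had group as its only term. Folds are ratios of group mean FPKM. Since FPKM are not counts, no count model was run, and absolute depth is unknown. The script was tested on simulated data.

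Every one of the 10 genes is named, with Hdac3 as a check, and of the other lists each gene called by limma or by the deposited q-value; for the p53 regulators and the gene families uncalled genes above the filter are named too. Fas, Ei24, Bak1, Mki67 and Trib3, and genes named as below the filter or at 0, were added after their values were seen. Hdac4 and Hdac5, uncalled and above the filter, are also named outside this rule. The 10 genes and all lists were chosen with earlier results of these data known, so no list is independent evidence of its direction. Libraries with the same replicate number are not stated to share a mouse or a batch. Promoter sequences are from RefSeq (GRCm38.p6). The other 8 samples of the series, of HDAC3 ChIP-seq, its inputs and nascent RNA, were not analysed here; the peak lists are in mm9 coordinates and were not placed on genes of another build. Alternatives were other pseudocounts, filters, library centring, a replicate block, array weights, no trend, another threshold, the deposited q-values and each library left out; the count of proliferation genes without wild-type replicate 2 was added after seeing the data.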

Additional observations from a re-analysis of the deposited data

How the results depend on the processing

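Cdkn1a was called in each of the 16 alternative limma fits, with adjusted p from 0.000989 to 0.0407. The number of all genes called moved far more: 383 as reported, 247 without the filter, 1495 with array weights, 776 at an adjusted p under 0.1, 998 by q-value in the authors' deposited table, and 211, 21 and 231 without wild-type replicate 1, 2 and 3 and 45, 146 and 45 without knockout replicate 1, 2 and 3. Of the 10 genes, 1 was called as reported, 4 with array weights (Cdkn1a, Btg2, Phlda3 and Gadd45a), 2 at an adjusted p under 0.1 (Cdkn1a and Btg2) and 5 by q-value in the authors' deposited table. Their median log2 ratio was 0.37 (without knockout replicate 2) to 0.54 with a library left out. The direction turned for 3 genes, none of them called: on the log2(FPKM + 1) scale the difference was -0.035 (without wild-type replicate 3) to 0.15 for Ccng1, -0.067 (without knockout replicate 2) to 0.49 for Sesn1, which was also below 0 without wild-type replicate 3, and -0.064 (without wild-type replicate 1) to 0.51 for Bax. The cause was not tested. With the replicate number as a block, 36 of all genes and 1 of the 10, Cdkn1a (adjusted p = 0.0407), were called. Deviations of libraries with the same number correlated at 0.037 to 0.052 over genes, too weakly to call them pairs. Others correlated at -0.086 to 0.032. Each library correlated best with its own number, but the deviations are from the group mean, so some pairs must correlate positively. These values cannot decide whether the numbers mark pairs, and the design does not say. Leaving out wild-type replicate 2, an alternative chosen after seeing the data, took the proliferation genes under the filter with a lower knockout mean from 14 to 8. Bax was under the filter at 5 FPKM. Distances to HDAC3 peaks were not run. Unknown depth limits what low values such as wild-type Cdkn1a can show.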

Other observations

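Genes known to respond to loss of the nerve supply were measured beside Gadd45a and Cdkn1a, both of which are known to be induced in denervated muscle. Of 12 such genes 7 were tested; limma called none, 2 were higher and 0 were lower at an unadjusted p under 0.05 (11% and 8.68% of all genes), and the median log2 ratio was 0.00. In the authors' deposited table, 2 of 5 rose, against 5.9% of genes tested by the authors. Myog, the myogenic factor myogenin, was at 2.01, 0.906 and 2.70 FPKM in wild-type and 3.99, 4.07 and 5.96 FPKM in knockout libraries, with no overlap. Its fold was 2.5, with a q-value of 0.00794 in the authors' deposited table and a limma adjusted p of 0.0877. Chrna1, the alpha subunit of the muscle acetylcholine receptor, had a fold of 1.66, with a q-value of 0.0264 in the authors' deposited table and a limma adjusted p of 0.126. The histone deacetylase genes Hdac4 and Hdac5 were not called, at mean levels of 7.27 and 8.49 FPKM in wild-type and 7.29 and 7.80 FPKM in knockout muscle.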
